A study of Mus musculus with 6 samples.

Results

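Guanine deaminase (Gda) and 9 further genes of purine breakdown and salvage (Xdh, Pnp, Pnp2, Ada, Hprt, Aprt, Adk, Nt5e and Uox) were examined in mammary epithelial cells (MECs). They are 10 of the 55487 genes in the deposited count table, and each was found there by its symbol. Gda was chosen by its difference between the genotypes in these same libraries, so that difference is a description, and the counts of calls below that include Gda support nothing. The other 9 genes were listed with it for their function. All 10 had reads, and 9 of them passed the filter on low counts. Pnp2 did not.

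The MECs came from 3 wild-type mice and 3 IL-21isoTg mice, with 1 library per mouse. All were female BALB/c mice aged 10 weeks, and the study's methods describe the females used for mammary analysis as virgin, at randomized stages of the estrous cycle. IL-21isoTg mice carry a transgene for a membrane-bound isoform of the cytokine IL-21 that is expressed in T cells, so the MECs examined here are not the cells meant to express it. MECs were what remained of digested mammary tissue after cells bearing CD45, CD31 or CD140a had been removed with magnetic particles, and no positive selection for epithelial cells was described.

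Total counts per library ranged from 15902886 to 25719244. Il21 had 0, 0 and 37 counts in the wild-type libraries and 795, 216 and 131 in the IL-21isoTg libraries. Wild-type mouse 3 thus held reads of the transgene's gene, and its label was kept as given. Values of Gda and Xdh without it are given with their results. Salivary gland genes took 6.59% to 22.9% of the counts in wild-type mice and 22.5%, 4.92% and 41.0% in IL-21isoTg mice 1, 2 and 3, and IL-21isoTg mouse 3 had the smallest library. The epithelial markers summed to 4987 to 6835 CPM (counts divided by TMM-scaled library sizes) in wild-type mice and 4715 to 7011 in IL-21isoTg mice. The leukocyte markers summed to 6.92 to 17.1 and 11.9 to 20.9 CPM, with Itgam at 0 in 3 libraries and Adgre1 at 0 in 1. Of the 4 leukocyte markers tested, 2 had a positive log2 fold change and 2 a negative one. The T-cell marker Cd3e was highest at 0.98 (SE 0.45). It was at 1.62, 1.39 and 2.20 CPM in wild-type and 4.32, 1.79 and 4.29 CPM in IL-21isoTg mice, with overlap. In bulk samples of this kind, fewer cells of a type and less RNA per cell cannot be told apart.

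Purine nucleotides are made de novo from small precursors, recycled from free bases and nucleosides, or broken down. In breakdown, nucleotidases such as Nt5e release nucleosides, Ada turns adenosine into inosine, and the Pnp enzymes cut inosine and guanosine into hypoxanthine and guanine. Gda deaminates guanine to xanthine, and xanthine dehydrogenase (Xdh) oxidizes hypoxanthine and xanthine to urate, which Uox degrades further in the mouse liver. Hprt and Aprt return free bases to nucleotides, and Adk does so for adenosine. In the mammary gland, Xdh is also known as a structural partner of butyrophilin on the membrane of the milk fat globule.

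Gda (ENSMUSG00000058624) lies on the minus strand at chr19:21391307-21473445 in GRCm38. RefSeq promoter windows, which run from 250 bases before to 50 bases after a gene start on GRCm38.p6, were at hand for 8 of the 10 genes, in 9 windows. Xdh and Pnp2 had none. The 250 bases before the RefSeq start are shown for Gda, because its difference led to this list, and for Ada, the member whose window held TTCNNNGAA. Each is written 5′ to 3′ on the gene's own strand, minus in both cases. The Gda bases lie at chr19:21472662-21472911 and the Ada bases at chr2:163750240-163750489. Capitals mark matches to 4 motifs on either strand: TTCNNNGAA, the palindromic core that STAT factors recognize, TATAAA, the TATA box, CCAAT, the box bound by NF-Y, and GGGCGG, the GC box. A capital ATTGG is CCAAT read from the opposite strand. None of the matches shown overlap each other.
Gda: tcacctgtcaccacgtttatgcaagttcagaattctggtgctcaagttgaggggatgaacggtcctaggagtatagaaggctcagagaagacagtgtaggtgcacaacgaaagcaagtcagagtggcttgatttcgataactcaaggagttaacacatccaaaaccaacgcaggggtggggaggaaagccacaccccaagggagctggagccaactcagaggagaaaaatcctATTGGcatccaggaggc
Ada: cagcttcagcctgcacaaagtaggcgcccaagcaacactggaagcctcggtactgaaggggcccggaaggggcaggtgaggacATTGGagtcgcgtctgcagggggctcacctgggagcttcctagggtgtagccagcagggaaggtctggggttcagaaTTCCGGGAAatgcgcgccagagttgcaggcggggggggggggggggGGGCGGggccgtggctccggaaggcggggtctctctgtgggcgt

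In the Gda window the sole match was 1 reversed CCAAT, which began at position -17 from the RefSeq start. TTCNNNGAA was found in 1 of the 8 genes, Ada, at position -90, against 8.30% of all 32851 windows. GGGCGG was found in 6 of the 8 genes (Ada, Aprt, Nt5e, Adk, Pnp and Hprt) against 35.7% of all windows, and not in Gda or Uox. Members are counted here by gene and the background by window. Counted by window, GGGCGG was in 7 of the 9 windows of the members. CCAAT was in 4 of the 8 genes against 37.4% of all windows, and TATAAA was in 0 against 13.6%. These are matches of letters within 300 bases and do not show binding.

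Gda, which commits guanine to breakdown, was low in all wild-type mice and higher in all IL-21isoTg mice. Its level was 8.84, 10.5 and 10.0 CPM in wild-type mice 1, 2 and 3, from 196, 219 and 223 counts. In IL-21isoTg mice 1, 2 and 3 it was 31.1, 27.2 and 25.3 CPM, from 749, 732 and 271 counts. The genotypes did not overlap, and the lowest IL-21isoTg mouse, mouse 3, was still above the highest wild-type mouse, mouse 2. Mean CPM was 9.80 ± 0.865 in wild-type and 27.9 ± 2.98 in IL-21isoTg mice (SD, n = 3), a ratio of 2.85. The fitted log2 fold change was 1.51 (SE 0.18), and it ranged from 1.42 to 1.58 when 1 mouse was left out at a time, with 1.53 without wild-type mouse 3.

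Xdh, which acts on the xanthine that Gda makes, had the largest fitted difference of the members. It reached 49.7, 95.7 and 129 CPM in wild-type mice, from 1102, 1991 and 2878 counts. In IL-21isoTg mice it reached 394, 316 and 301 CPM, from 9486, 8484 and 3231 counts. All 3 IL-21isoTg mice were above all 3 wild-type mice, but the wild-type mice were far apart, with mouse 3 at 2.61 times mouse 1, whereas the IL-21isoTg mice spanned 1.31-fold. Means were 91.6 ± 40.0 and 337 ± 50.1 CPM (SD, n = 3), and the log2 fold change was 1.88 (SE 0.33), from 1.597 to 2.21 with 1 mouse left out at a time. The highest of these values was without wild-type mouse 3, the wild-type mouse with the most Xdh.

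**Figure D1:**
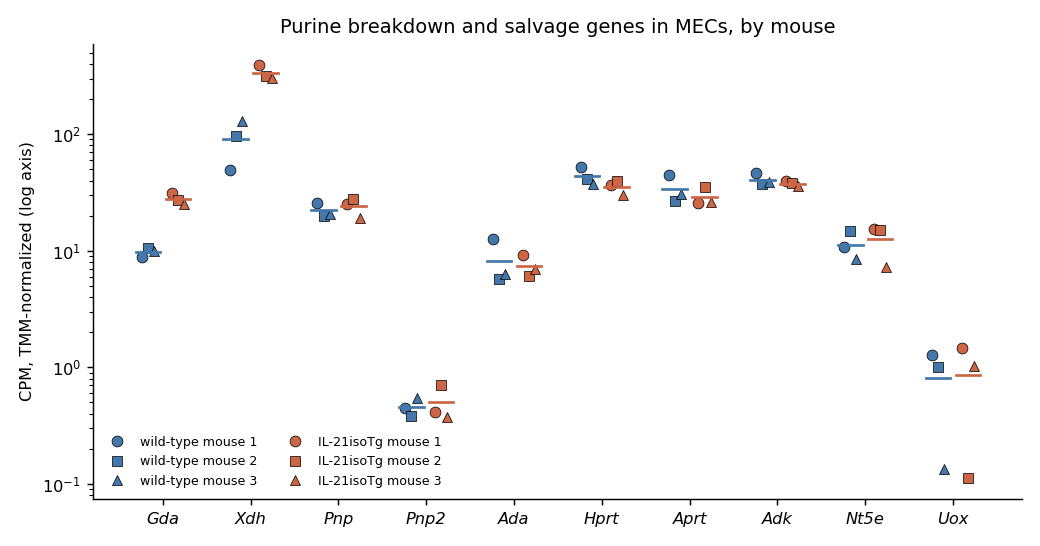
TMM-normalized CPM (log axis) of the 10 genes in each mouse, wild-type in blue and IL-21isoTg in orange, with the mean of each genotype as a horizontal line. Gda (8.84 to 10.5 against 25.3 to 31.1 CPM) and Xdh (49.7 to 129 against 301 to 394 CPM) are the 2 genes of this list whose genotypes separate.

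Among the enzymes upstream of Gda and Xdh, the levels of both genotypes overlapped. Pnp, which frees guanine and hypoxanthine from their nucleosides, was at 25.7, 19.9 and 20.8 CPM in wild-type mice and at 25.3, 27.8 and 19.2 CPM in IL-21isoTg mice, with a log2 fold change of 0.12 (SE 0.20). Its tandem neighbour Pnp2 had 10, 8 and 12 counts and 10, 19 and 4 counts. Ada, which makes inosine from adenosine, was at 12.5, 5.77 and 6.25 CPM and at 9.27, 6.07 and 6.99 CPM, with a log2 fold change of -0.13 (SE 0.36). In both of its groups mouse 1 was the highest. Nt5e, the membrane nucleotidase known as CD73 that releases adenosine outside the cell, was at 10.8, 14.7 and 8.41 CPM and at 15.4, 15.1 and 7.18 CPM, a log2 fold change of 0.16 (SE 0.34).

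The Pnp values carry a counting limit. Pnp2 lies within the span of Pnp on the same strand, and their coding sequences were identical at 851 of 915 aligned columns (93.0%), with 1 unbroken identical run of 292 bases. Of the 100-base stretches in the annotated Pnp transcripts, 17.1% also occurred in transcripts of another gene, as did 14.99% of those of Pnp2. Another annotated gene on that strand, Gm49342, shares 718 exonic bases with Pnp and was listed at 0 counts in all 6 libraries. Gm38316, on the other strand, shares 356 exonic bases with Pnp and had 363, 377 and 353 counts in wild-type and 279, 596 and 203 counts in IL-21isoTg mice. The kit marks strand, but whether the counting used it is not given in the sources used here. Xdh shared 2.34% of its stretches with other genes, and the other 7 members shared 0.

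The 3 salvage genes had lower means in IL-21isoTg mice, with ranges that overlapped between the genotypes. Hprt, which recycles hypoxanthine and guanine, was at 51.9, 41.6 and 37.4 CPM in wild-type mice and at 36.8, 39.3 and 30.3 CPM in IL-21isoTg mice, a log2 fold change of -0.30 (SE 0.18). Aprt, which recycles adenine, was at 44.4, 26.8 and 30.5 CPM and at 25.4, 35.2 and 26.0 CPM, a log2 fold change of -0.23 (SE 0.24). Adk, which phosphorylates adenosine, was at 46.3, 37.2 and 38.8 CPM and at 39.2, 38.2 and 35.6 CPM, a log2 fold change of -0.11 (SE 0.15). In all 3 genes wild-type mouse 1 was the highest of the 6 mice. Without it the log2 fold change of Aprt was 0.024 and that of Adk 0.0022, so that both turned sign, and Hprt stayed below 0.

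Uox, the urate oxidase best known from liver, was near the limit of detection. It had 28, 21 and 3 counts in wild-type mice and 35, 3 and 11 counts in IL-21isoTg mice. A count of 3 corresponds to 0.112 to 0.280 CPM in these libraries, and Uox was at 3 counts in wild-type mouse 3 and IL-21isoTg mouse 2. Its log2 fold change of 0.09 had an SE of 0.99, so the sign of a difference could not be read beyond the spread between these mice.

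With p-values adjusted by the Benjamini-Hochberg method, edgeR's quasi-likelihood test called 0 of the 9 tested members at an adjusted p of 0.05, beside 0% of the 17165 genes tested. At an unadjusted p under 0.05 there were 2, Gda and Xdh, against 5.82% of all genes. The genotypes did not overlap in 2 of the 9, the same pair, against 12.1% of all genes. DESeq2's Wald test called the same pair at its adjusted threshold, against 0.467% of the 17137 genes it adjusted. So did edgeR's likelihood ratio test, which called 52 genes higher and 13 lower of the 17165 tested, whereas limma-voom called 0. Since Gda was chosen on this contrast, these counts are given as a description. The median log2 fold change of the 9 members was 0.09, beside -0.02 over all genes tested, and 5 were above 0 and 4 below.

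Ratios within a library do not depend on how libraries are scaled to each other. Per 100 counts of Hprt, Gda had 17.03, 25.3 and 26.8 counts in wild-type mice and 84.5, 69.3 and 83.4 in IL-21isoTg mice. Xdh had 95.7, 230 and 346 counts per 100 of Hprt in wild-type mice and 1071, 803 and 994 in IL-21isoTg mice. Pnp had 49.5, 48.0 and 55.7 against 68.6, 70.8 and 63.4, so that on this scale its genotypes did not overlap, with means of 51.1 ± 4.10 and 67.6 ± 3.80 (SD, n = 3). In CPM Pnp overlapped, while Hprt, the divisor, had a log2 fold change of -0.30. Every ratio to Hprt had a higher mean in IL-21isoTg mice, with Aprt the least raised at 1.06-fold. The share of all genes that separate on this scale was not computed, so the separation of Pnp is a description. For each count of Gda there were 5.62, 9.09 and 12.9 counts of Xdh in wild-type mice and 12.7, 11.6 and 11.9 in IL-21isoTg mice. The ratio of Xdh to Gda thus overlapped between the genotypes and varied mainly among wild-type mice.

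**Figure D2:**
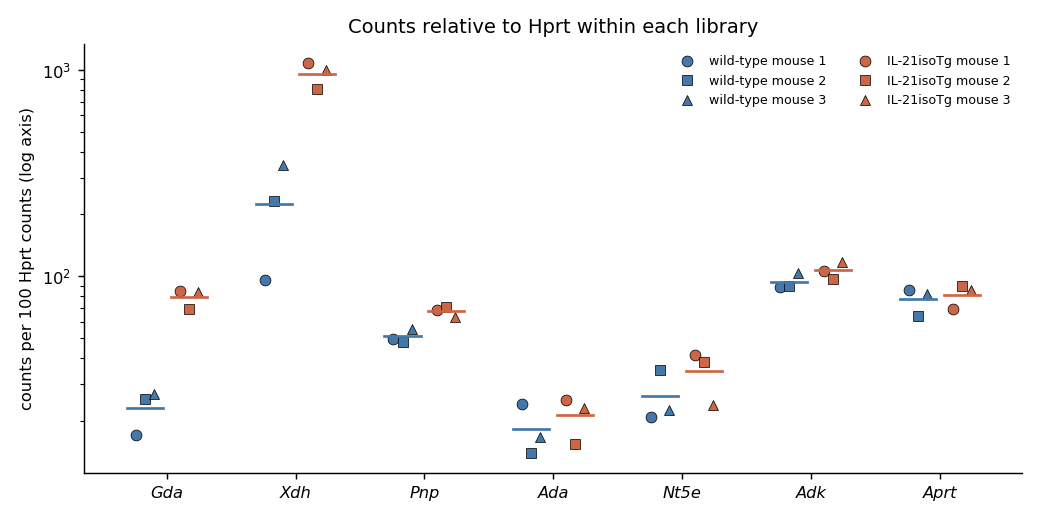
Counts of 7 members per 100 counts of Hprt in each library (log axis), wild-type in blue and IL-21isoTg in orange, with group means as lines. Gda, Xdh and Pnp separate by genotype on this scale, with Pnp at 48.0 to 55.7 against 63.4 to 70.8, while Ada, Nt5e, Adk and Aprt overlap. Pnp did not separate in CPM, and the share of all genes that separate on this scale was not computed.

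Levels of different genes were compared per length, as CPM per kilobase of exon, with the exons of all annotated transcripts of a gene merged. This merged length exceeds the longest transcript for every member except Hprt (1289 bases in both), for example 1615 against 929 bases for Aprt. The order below holds for the merged length and was not examined with other lengths. Over the 6 mice the order of mean levels was Hprt at 30.7, Xdh at 23.4, Aprt at 19.4, Pnp at 5.81, Adk at 4.60, Ada at 3.90, Gda at 3.02, Nt5e at 1.39, Pnp2 at 0.302 and Uox at 0.166. Neighbours in this order overlapped in their ranges over the mice, except for Aprt above Pnp and Nt5e above Pnp2. The order of Hprt and Xdh depended on the genotype. By this length, Hprt ranked 1 in all 3 wild-type mice and 2 in all 3 IL-21isoTg mice. Xdh ranked 6, 3 and 3 in wild-type mice and 1 in all 3 IL-21isoTg mice. Gda moved from rank 7 to rank 5 by its mean level, from 1.57 ± 0.139 to 4.47 ± 0.479 CPM per kilobase (SD, n = 3), beside 36.7 ± 5.46 for Xdh in IL-21isoTg mice.

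The distance between mice of 1 genotype was measured as the SD of log2(CPM + 0.5) within genotypes, pooled over both. Adk had 0.13 and Gda 0.14, and 7.66% and 9.53% of the 17165 tested genes had a smaller SD. For Gda this is a description only, since a small spread helps a gene to stand out in the contrast that chose it. Xdh had 0.52, above 77.5% of tested genes, and its SD was 0.70 in wild-type and 0.21 in IL-21isoTg mice. Uox had the largest of the members, 0.84. The median over the 9 members was 0.32, as it was over all tested genes.

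**Figure D3:**
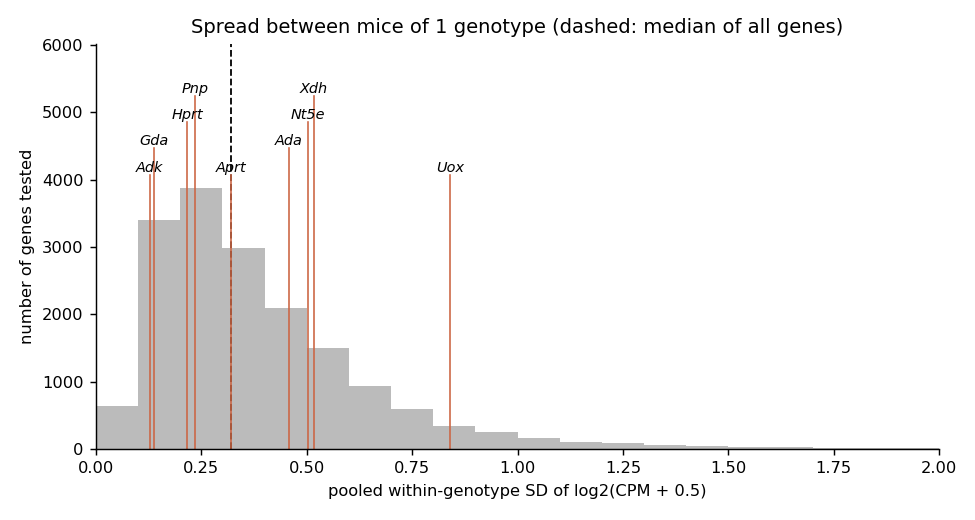
Histogram of the pooled within-genotype SD of log2(CPM + 0.5) over the tested genes up to an SD of 2, with the 9 tested members as orange lines and the median of all genes, 0.32, dashed. Adk (0.13) and Gda (0.14) lie at the narrow end, Xdh (0.52) and Uox (0.84) to the right of the median.

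The 5 tested genes outside the list whose profile over the 6 mice was most like that of Gda were Slpi, Dab2, Peg10, Slc9a4 and Adig. Likeness was the root mean square difference of log2 CPM profiles, each centred on its own mean, and it was 0.17, 0.21, 0.22, 0.22 and 0.23. Slpi, a secreted protease inhibitor, was at 32.7, 37.8 and 33.9 CPM in wild-type and 82.7, 78.8 and 69.4 CPM in IL-21isoTg mice. Dab2, an adaptor of endocytosis, was at 22.8, 17.5 and 17.9 CPM and at 58.6, 63.3 and 53.3 CPM. That they separate by genotype as Gda does follows from how they were picked. Xdh stood at rank 175 by this measure, with a difference of 0.43, and Pnp was the next member, at rank 4233.

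Of 80 further genes of purine metabolism listed by function, 75 had a count and 68 were tested. By edgeR's quasi-likelihood test 0 of the 68 passed an adjusted p of 0.05, with adjusted p-values from 0.645 to 1.00. At an unadjusted p under 0.05 there were 8, all higher in IL-21isoTg mice, which is 11.8% against 5.82% of all genes. The genotypes did not overlap in 15 of the 68 (22.1%, against 12.1% of all genes), 9 higher and 6 lower in IL-21isoTg mice. DESeq2's Wald test called 2, Abcg2 and Mocs1, against 0.467% of the 17137 genes it adjusted. The median log2 fold change of the 68 was -0.03, beside -0.02 over all genes, and the lists differed in where their members lay.

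The 10 tested genes of de novo synthesis, which build the purine ring, lay mostly below 0. Of these, 9 had a negative log2 fold change and 1 a positive one, with a median of -0.37, and 0 passed the test, adjusted or not. Among these 9, Prps1 (-0.12) turned sign when single mice were left out, with 0.047 without wild-type mouse 1. Atic, which performs the last steps to IMP, was lowest at -0.46 (SE 0.22), and Prpsap1, a regulator of the ribose phosphate synthase, was highest at 0.01 (SE 0.18) and turned sign when single mice were left out. Gart and Pfas, enzymes of the ring-building steps, were the 2 whose genotypes did not overlap, and they are named after their values were seen. Gart was at 59.8, 58.9 and 57.5 CPM in wild-type and 42.2, 56.4 and 30.0 CPM in IL-21isoTg mice. The 4 genes of other salvage were also all below 0, from Mtap at -0.16 (SE 0.24), which recycles methylthioadenosine, to Ahcy at -0.57 (SE 0.38), which splits adenosylhomocysteine. Both rested on wild-type mouse 1, and without it they were at 0.05 and 0.02. Ahcy was at 35.9, 13.5 and 15.6 CPM in wild-type and 11.6, 17.6 and 14.5 CPM in IL-21isoTg mice.

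The step from IMP to guanine and adenine nucleotides had 12 tested genes, 6 above and 6 below 0. Ak1, an adenylate kinase, had the highest log2 fold change at 0.55 (SE 0.22). Impdh2, an isoform of the enzyme that commits IMP to guanine nucleotides, had the lowest at -0.45 (SE 0.22). It was at 142, 95.8 and 99.0 CPM in wild-type and 85.9, 94.7 and 65.3 CPM in IL-21isoTg mice. The other isoform, Impdh1, named after its values were seen, was at 50.2, 53.7 and 55.4 CPM and at 68.4, 66.4 and 70.8 CPM, a log2 fold change of 0.37 (SE 0.13). The 2 isoforms thus lay apart in opposite directions without overlap between genotypes, and neither passed the adjusted test (adjusted p = 0.809 for both by edgeR's quasi-likelihood test).

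Of the 12 tested genes of nucleotide breakdown, 4 lay above and 8 below 0, between Nt5c2, a cytosolic nucleotidase, at 0.36 (SE 0.28) and Samhd1, which hydrolyses deoxynucleotides, at -0.28 (SE 0.20). Nt5c2 was at 39.3, 32.7 and 43.2 CPM in wild-type and 42.4, 33.7 and 72.6 CPM in IL-21isoTg mice, and without IL-21isoTg mouse 3 its log2 fold change was -0.0063. The only tested gene that acts after urate was Urah at 0.03 (SE 0.16), which turned sign when single mice were left out. Of the 9 tested genes listed as ectonucleotidases, many of which degrade nucleotides outside the cell, 7 lay above 0. Among these 7, Entpd5 (0.15) turned sign without IL-21isoTg mouse 3, to -0.05. Entpd2, an ectonucleotidase that acts on ATP, was highest at 0.68 (SE 0.22), with 9.83, 9.66 and 10.4 CPM in wild-type and 17.2, 12.1 and 18.7 CPM in IL-21isoTg mice. Enpp1 was lowest at -0.07 (SE 0.24), with 0.12 without wild-type mouse 1.

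Transporters and adenosine receptors held the largest differences among the 68 pathway genes, with 9 of 11 tested genes above 0 and a median log2 fold change of 0.49. Among these 9, Slc29a1 (0.0087, SE 0.24) and Slc29a4 (0.0012, SE 0.56) were close to 0 and turned sign when single mice were left out. Slc2a9, a urate transporter, was highest at 1.73 (SE 0.50; adjusted p = 0.809 by edgeR's quasi-likelihood test), with 103, 43 and 93 counts in wild-type and 384, 410 and 50 counts in IL-21isoTg mice. In CPM it was at 4.65, 2.07 and 4.18 and at 16.0, 15.3 and 4.66, so that IL-21isoTg mouse 3 was level with wild-type mouse 1. Abcg2, an exporter of urate that also carries riboflavin into milk, is named because DESeq2 called it. It was at 13.3, 12.8 and 11.1 CPM and at 38.2, 39.5 and 18.0 CPM, a log2 fold change of 1.37 (SE 0.30; adjusted p = 0.645 by edgeR's quasi-likelihood test). IL-21isoTg mouse 3 was the lowest of its group in both genes. Slc29a2, a nucleoside transporter, was lowest at -0.50 (SE 0.41).

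Xdh needs a molybdenum cofactor, and 9 genes of its synthesis or of the enzymes that carry it were tested, with 4 above and 5 below 0. Mocs1, which performs the first step of the synthesis, was highest at 1.00 (SE 0.23; adjusted p = 0.677 by edgeR's quasi-likelihood test). It was at 10.6, 14.7 and 16.3 CPM in wild-type and 29.4, 31.6 and 21.8 CPM in IL-21isoTg mice. As for Xdh, mouse 1 was the lowest and mouse 3 the highest of the wild-type mice. Of the IL-21isoTg mice, mouse 3 was the lowest for both genes, but the highest was mouse 1 for Xdh and mouse 2 for Mocs1. Aox3, an aldehyde oxidase, was lowest at -0.35 (SE 0.74), with 6.27, 55.0 and 9.13 CPM in wild-type and 22.8, 19.6 and 12.8 CPM in IL-21isoTg mice. That direction rested on wild-type mouse 2, and without it the log2 fold change was 1.26. It also turned sign in 2 of the alternatives that kept all mice.

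**Figure D4:**
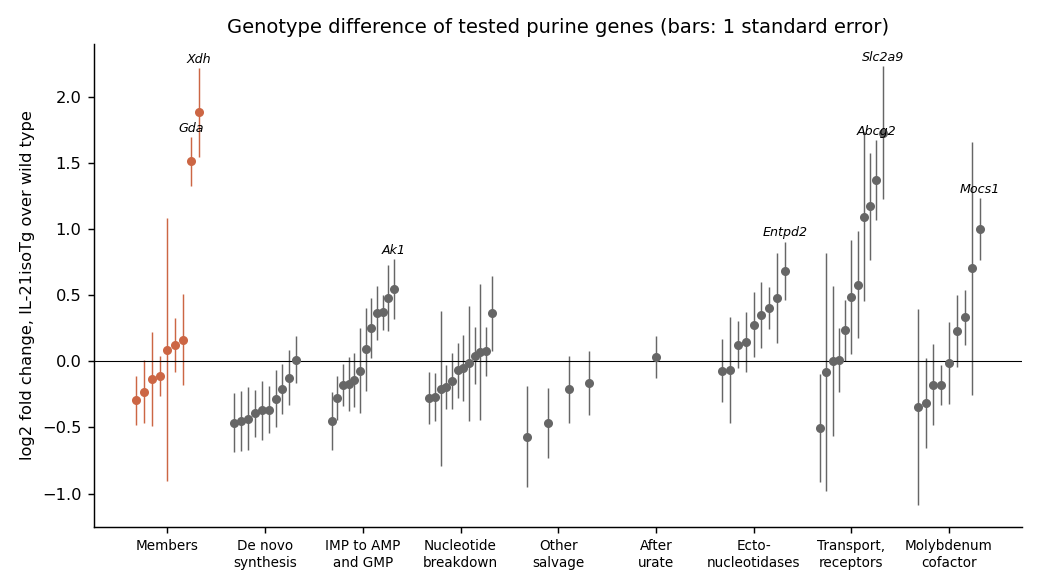
Fitted log2 fold change (IL-21isoTg over wild type, vertical axis) of each tested gene, with bars of 1 standard error, for the 9 tested members in orange and the 68 other purine genes in grey by list. Gda (1.51) and Xdh (1.88) stand at the top of the members, Slc2a9 (1.73) and Abcg2 (1.37) at the top of the transporters, and 9 of the 10 de novo genes lie below 0.

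The 3 genes listed for milk fat globules and lipid droplets also had higher means in IL-21isoTg mice. The IL-21isoTg mice were further apart for them than for Xdh. Btn1a1, the butyrophilin that binds Xdh, was at 13.4, 142 and 103 CPM in wild-type and 382, 538 and 142 CPM in IL-21isoTg mice, a log2 fold change of 2.04 (SE 0.79). Plin2, which coats lipid droplets, was at 143, 203 and 172 CPM and at 538, 527 and 195 CPM, so that its genotypes overlapped (log2 fold change 1.28, SE 0.37). Cidea, a lipid droplet protein, was at 2.48, 5.29 and 2.56 CPM and at 13.8, 12.7 and 7.37 CPM, a log2 fold change of 1.72 (SE 0.39). By edgeR's quasi-likelihood test 0 of the 3 passed, with adjusted p-values from 0.670 to 0.809. In all 3 genes IL-21isoTg mouse 3 was below the other two of its group, whereas its Xdh (301 CPM) was close to that of IL-21isoTg mouse 2 (316 CPM).

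Cells other than epithelium also express Xdh, among them endothelial cells, which the removal of CD31-bearing cells targets, and fat cells, which no antibody of the selection targets. The 4 endothelial markers (Pecam1, Cdh5, Kdr and Tek) summed to 51.0, 136 and 61.5 CPM in wild-type and 232, 175 and 88.3 CPM in IL-21isoTg mice, so the groups overlapped. All 4 had a positive log2 fold change, from 0.52 to 1.22, and 0 of 4 passed the adjusted test. Cdh5 did not overlap between the genotypes, while Pecam1, Kdr and Tek did. It was at 17.1, 27.6 and 16.1 CPM in wild-type and 64.2, 48.8 and 28.4 CPM in IL-21isoTg mice. The 5 adipocyte markers summed to 25.5, 67.7 and 30.7 CPM and to 309, 110 and 32.1 CPM. Adipoq, which defines fat cells, was at 0, 5 and 6 counts in wild-type and 207, 24 and 1 counts in IL-21isoTg mice. The 5 fibroblast markers summed to 1339, 2441 and 2237 CPM and to 3428, 2779 and 2736 CPM, without overlap. Of these, Col1a1 (log2 fold change 1.02), Col1a2 (0.85) and Lum (0.40) did not overlap between the genotypes, while Pdgfra (0.57), which encodes the CD140a used in the selection, and Dcn (-0.27) did overlap. By edgeR's quasi-likelihood test 0 of the 5 passed the adjusted threshold. In IL-21isoTg mouse 3, endothelial and adipocyte sums were within the wild-type ranges, though Cdh5 (28.4 CPM) was above all wild-type mice. The fibroblast sum (2736 CPM), Gda (25.3 CPM) and Xdh (301 CPM) of this mouse were also above all wild-type mice. The part of these other cell types in the differences of Gda and Xdh was not tested.

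**Figure D5:**
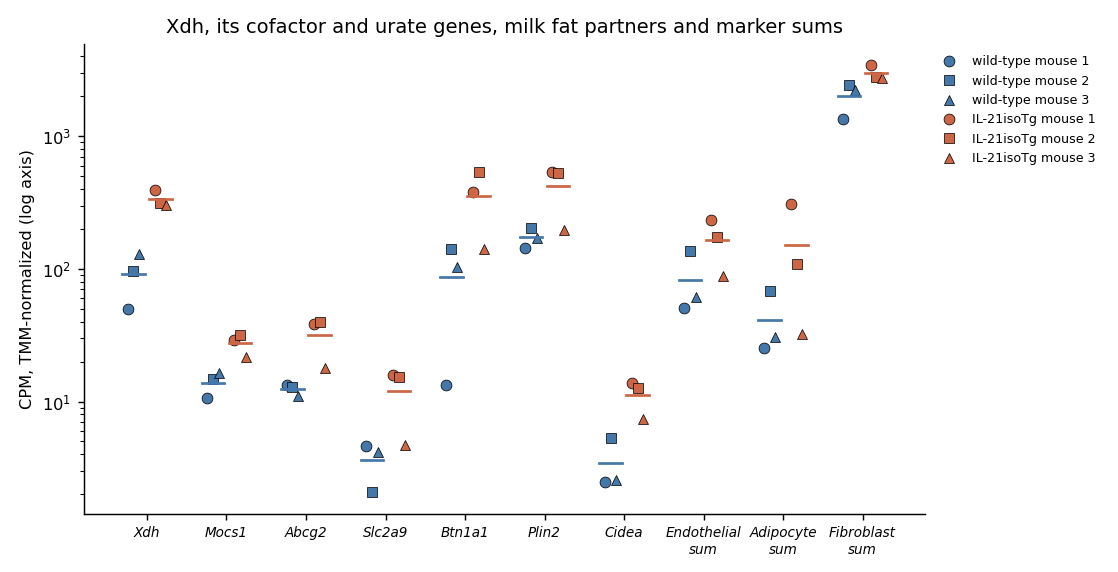
TMM-normalized CPM (log axis) in each mouse, with group means as lines. Shown are Xdh, its cofactor gene Mocs1, the urate transporters Abcg2 and Slc2a9, and the milk fat genes Btn1a1, Plin2 and Cidea. The summed endothelial, adipocyte and fibroblast markers are beside them. IL-21isoTg mouse 3 (orange triangle) lies near the wild-type mice for Slc2a9, Btn1a1, Plin2 and the endothelial and adipocyte sums. It lies above all wild-type mice for Xdh (301 CPM against at most 129) and for the fibroblast sum (2736 against at most 2441).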

How the data were processed

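RNA-seq libraries of MECs, 3 per genotype, were analysed, with groups and replicate numbers taken from the labels. The authors deposited raw read counts per gene. The submitters' processing notes name FastQC 0.11.7, Trimmomatic 0.38, HISAT2 2.1.0, SAMtools 1.9, featureCounts 1.6.3, DESeq2 1.24.0 and the build mm10. A deposited table of size-factor-scaled counts and the authors' own comparison (fold changes and p-values) were not used, apart from the gene start and end positions, another kind of value the authors deposited there.

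Genes were filtered with filterByExpr (minimum count 10, minimum total 15), scaled with TMM and tested with edgeR 4.0.16 (quasi-likelihood, robust, genotype only), in R 4.3.3, with Benjamini-Hochberg adjustment over 17165 genes and a threshold of 0.05. DESeq2 1.42.0, limma 3.58.1, another filter or scaling, a replicate block and each mouse left out were the alternatives. Log2 fold changes are IL-21isoTg over wild type. Levels are CPM; the smallest level read is that of 3 counts, which covers counting error only. Positions and exon lengths came from GENCODE M21 (GRCm38), promoters from RefSeq (GRCm38.p6). The fitting was tested on simulated data.

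The members, lists and tests were chosen with earlier results of these data known. Named genes were the 10 members, the highest and lowest tested gene of each pathway list, genes past the threshold, the 5 nearest to Gda, Btn1a1, Plin2, Cidea, Il21 and the markers.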

Additional observations from a re-analysis of the deposited data

How the results depend on the processing

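With 3 mice per genotype and libraries that differ far more than by sampling, 0 genes passed edgeR's quasi-likelihood test (999 at an unadjusted p under 0.05), so calls depend on the test. Without the filter on low counts, 14 of the 28839 genes then tested were called higher, and 1 of these 14 was a member, Gda. DESeq2's Wald test called 72 genes higher and 8 lower, among them 2 members (Gda and Xdh) and 2 pathway genes (Abcg2 and Mocs1), and edgeR's likelihood ratio test called 52 higher and 13 lower, with the same 2 members and 1 pathway gene (Abcg2). Leaving out 1 mouse at a time gave 0 to 6 genes called higher, with 6 without wild-type mouse 3, and 0 members. Gda and Xdh kept their direction in every alternative run. Other members turned sign when 1 mouse was left out: Ada ranged from -0.33 to 0.33, Aprt from -0.40 to 0.024, Adk from -0.17 to 0.0022, Nt5e from -0.010 to 0.44 and Uox from -0.63 to 0.64 (log2). Ada, Aprt and Adk turned without wild-type mouse 1. Uox was also negative with limma-voom (-0.20). The cause was not tested, and all 5 were within 1 SE of 0 in the fit of all mice.

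Alternatives added after seeing the data left out each mouse for the pathway genes, with the values beside them in the results, and 2 mice in turn for overlap. Without wild-type mouse 3, genotypes did not overlap in 3 members (Gda, Xdh and Hprt) and 21 pathway genes, against 17.8% of all tested genes. Without IL-21isoTg mouse 3 they did not overlap in 3 members (Gda, Xdh and Nt5e) and 16 pathway genes, against 21.9%.

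Mice share replicate numbers, but same-numbered mice did not deviate together (correlations of -0.26, 0.10 and -0.06), so the numbers were not taken as pairs. With a replicate block 0 genes were called in either direction, Gda was at 1.51, Xdh at 1.97 and Uox at -0.0031 (log2), and the other members kept their sign.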
